A study of Saccharomyces cerevisiae with 72 samples.

Results

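Cycling mad1Δ bub2Δ cells are the arm without polyploidy in a study of budding yeast that duplicated its genome without dividing. They were haploid MATa cells of the W303 background (mad1::URA3 bub2::HIS3, with the auxotrophic markers of that background), kept in log phase by dilution in rich glucose medium with adenine at 30 °C, and they received DMSO, the solvent of nocodazole, in place of the drug. The arm was chosen by strain, treatment and temperature, and held 3 libraries at 16 h and 3 at 0 h, 6 of the 72 RNA-seq libraries of the series. The libraries set beside it were of the same strain with nocodazole at 30 °C (3 at 16 h and 3 at 0 h, polyploid by 16 h) and of cycling cdc24-1 swe1Δ cells labelled 25 °C (3 at 16 h and 3 at 0 h). The remaining libraries were other time points of the nocodazole arm, MAD1 BUB2 cells arrested by nocodazole, and cdc24-1 swe1Δ cells at 37 °C with or without cdc20-1. The 3 samples of a time are biological replicates in the study's methods, which also state that the times of a replicate came from 1 culture. The comparison of 16 h with 0 h asks what changes in a culture of dividing cells over the length of the experiment when ploidy does not rise.

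Mad1 belongs to the spindle assembly checkpoint, which holds cells in mitosis until every chromosome is attached to microtubules, and Bub2 to a checkpoint that holds mitotic exit until the spindle is in place. Cells that lack both pass through mitosis when nocodazole removes the spindle, whereas without the drug they go on dividing. Dividing yeast adjusts its uptake of nutrients through transcription factors that read a single nutrient each. Pho4 is held out of the nucleus by the cyclin-CDK pair Pho80-Pho85 when phosphate is ample, and otherwise turns on phosphatases and phosphate transporters. Zap1 turns on zinc transporters when zinc is low, and Aft1 turns on the high-affinity iron system when iron is low. Respiratory genes are under the Hap2/3/4/5 complex, which binds CCAAT sequences.

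Promoter sequences are shown for 7 genes whose levels the results turn on, because genes of 1 regulon fell or rose together. Each is the stretch from base 300 to base 101 before the start codon, 5′ to 3′ on the strand of the gene, from the RefSeq copy of the R64 assembly, the release to which the authors aligned. Capitals mark the sequence searched for on both strands: CACGTG (a site of Pho4 that the factor Cbf1 shares) in PHO5 and PHO11, the zinc response element of Zap1 in ZRT1, GCACCC (the Aft1 core, or GGGTGC on the other strand) in TIS11 and SIT1, and CCAAT (the Hap core) in QCR7 and QCR9. The whole stretches printed are chrII:431052-431251 (minus strand) for PHO5, chrI:225160-225359 (plus) for PHO11, chrVII:20678-20877 (plus) for ZRT1, chrXII:416759-416958 (minus) for TIS11, chrV:27357-27556 (plus) for SIT1, chrIV:1496649-1496848 (minus) for QCR7 and chrVII:859577-859776 (minus) for QCR9.
PHO5: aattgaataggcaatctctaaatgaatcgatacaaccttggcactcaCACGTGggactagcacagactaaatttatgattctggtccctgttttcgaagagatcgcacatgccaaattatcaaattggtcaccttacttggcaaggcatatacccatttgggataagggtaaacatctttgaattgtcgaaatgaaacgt
PHO11: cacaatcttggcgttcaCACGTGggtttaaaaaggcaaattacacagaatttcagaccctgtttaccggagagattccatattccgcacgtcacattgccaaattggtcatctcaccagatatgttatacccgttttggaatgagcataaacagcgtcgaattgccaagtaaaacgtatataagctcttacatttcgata
ZRT1: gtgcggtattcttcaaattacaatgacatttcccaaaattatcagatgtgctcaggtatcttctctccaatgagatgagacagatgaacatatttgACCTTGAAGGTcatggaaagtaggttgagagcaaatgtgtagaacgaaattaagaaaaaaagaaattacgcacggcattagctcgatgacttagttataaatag
TIS11: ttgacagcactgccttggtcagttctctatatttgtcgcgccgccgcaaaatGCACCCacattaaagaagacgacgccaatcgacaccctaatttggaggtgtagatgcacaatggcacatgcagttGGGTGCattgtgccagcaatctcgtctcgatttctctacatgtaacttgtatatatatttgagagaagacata
SIT1: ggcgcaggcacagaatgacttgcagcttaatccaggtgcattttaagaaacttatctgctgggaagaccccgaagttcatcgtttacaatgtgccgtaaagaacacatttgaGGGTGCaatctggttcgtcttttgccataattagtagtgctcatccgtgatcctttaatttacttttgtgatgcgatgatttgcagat
QCR7: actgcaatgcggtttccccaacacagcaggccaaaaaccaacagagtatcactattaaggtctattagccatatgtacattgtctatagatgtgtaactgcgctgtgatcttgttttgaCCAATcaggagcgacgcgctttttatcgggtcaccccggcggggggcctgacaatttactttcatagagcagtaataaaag
QCR9: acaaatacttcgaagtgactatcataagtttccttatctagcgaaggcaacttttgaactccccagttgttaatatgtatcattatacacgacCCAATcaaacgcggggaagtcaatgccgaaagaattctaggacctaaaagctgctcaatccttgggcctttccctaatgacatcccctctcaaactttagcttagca

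The totals of estimated counts were 7104630 to 8234310 in the 16 h libraries and 7583570 to 8820730 in the 0 h libraries, and ribosomal RNA took 1.33% to 2.32% of them. BUB2 had 0 counts in all 6 libraries. MAD1, replaced or interrupted by URA3, was not at 0: it had 174 to 341 counts at 16 h and 125 to 287 counts at 0 h, or 18.6 to 58.2 CPM (counts scaled to the library total) in the 6 libraries, against 66.1 to 106 CPM in the 6 libraries of cycling cdc24-1 swe1Δ cells. A count per gene does not show which stretch of MAD1 was read. Levels of genes below are CPM on library sizes scaled by TMM. The markers of α cells were at most 0.43 CPM for MF(ALPHA)1 and MF(ALPHA)2 and at most 1.7 CPM for STE3, while SAG1 had 11.8 to 23.2 CPM. The a-cell receptor gene STE2 had 627 to 719 CPM at 16 h and 800.3 to 829.5 CPM at 0 h. It is 1 of 7 listed a-cell markers, of which 6 were tested. MFA1 was not tested, and MFA2 had a log2 change (16 h minus 0 h) of 0.57, which was not called.

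Levels moved with the length of the gene differently in the 2 sets of libraries. Across 5708 genes, the change over 16 h had a Spearman correlation of −0.48 with coding length (start to stop codon, introns included), a description across genes, which are not independent. Genes of up to 300 bases had a median log2 change (16 h minus 0 h) of 0.86, those of 1000 to 1500 bases one of 0.03 and those over 3000 bases one of −0.32. The slope of the levels was −0.24, −0.37 and −0.05 log2 units per doubling of length in 16 h replicates 1, 2 and 3, and −0.03, 0.09 and 0.12 in 0 h replicates 1, 2 and 3. The bases that the quantification took off each gene's length as unusable for fragment starts were 199.8, 187.5 and 198.4 at 16 h and 211.5, 215.5 and 215.4 at 0 h. The trend was steepest in 16 h replicate 2, and 0 h replicate 3 stood apart in sulfur and nitrogen genes. The part of these in the changes was not tested. Many of the results are set beside a fit in which every library's trend over length was taken out or one in which 16 h replicate 2 and 0 h replicate 3 were left out, both chosen after the data were seen.

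**Figure D1:**
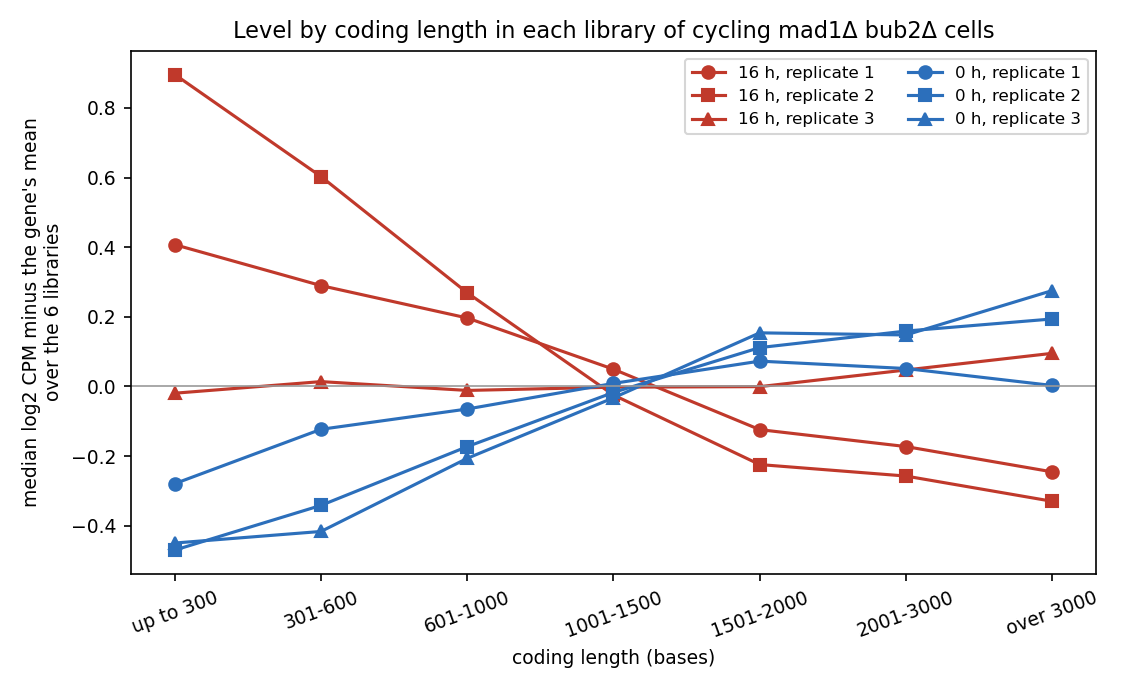
Median level of genes in 7 classes of coding length (x axis, bases) as log2 CPM minus each gene's mean over the 6 libraries (y axis), with 1 line per library of cycling mad1Δ bub2Δ cells, red for 16 h and blue for 0 h. In genes of up to 300 bases, 16 h replicate 2 is highest at 0.90 and the 0 h libraries lie at −0.28 to −0.47, while 16 h replicate 3 stays near 0 in every class.

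The DNA content of the cultures, the mean fluorescence of stained cells in flow cytometry in kiloarbitrary units (kAU), was 88.5, 84.6 and 83.9 kAU at 16 h and 87.6, 91.8 and 92.6 kAU at 0 h. The means were 85.7 ± 2.50 kAU at 16 h and 90.7 ± 2.69 kAU at 0 h (SD, n = 3 each), and the 2 times overlapped. The difference of −4.98 kAU had a p of 0.2 in a two-sided exact permutation test, whose smallest possible p with 3 cultures a time is 0.1. Within cultures the difference ran from −8.73 to 0.94 kAU (exact sign-flip test, p = 0.5). In the nocodazole arm the mean was 442 ± 14.5 kAU at 16 h and 102 ± 4.79 kAU at 0 h.

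Of 6025 genes tested, 1201 (19.9%) rose and 1037 (17.2%) fell between 0 and 16 h at an adjusted p under 0.05 (edgeR's quasi-likelihood test with Benjamini-Hochberg adjustment over all genes). After the trend over length was taken out, 989 of 5709 genes rose (17.3%) and 901 fell (15.8%), of which 697 and 718 were called the same way with the trend in place. Without 16 h replicate 2 and 0 h replicate 3, 234 of 6101 genes rose (3.84%) and 314 fell (5.15%). The 3 fits shared 179 genes that rose and 285 that fell. With the culture as a block, since the times of a replicate shared one, and only the 16 h and 0 h libraries of this arm fitted, 515 genes rose and 539 fell. The same libraries without the block gave 552 that rose and 497 that fell. Counts and calls with the block, here and below, therefore also carry the smaller set of libraries fitted. In the deposited log2(TPM + 1) values, which are divided by length, the median of all genes was −0.38 and 301 genes rose and 2131 fell by limma, so that 12.4% of the calls were upward, against 53.7% in the counts. The changes below are on the count scale, where the median of all genes was 0.001. The counts of each list stand beside the 19.9% of all genes that rose and the 17.2% that fell. With the 0 h libraries of the nocodazole arm, cultures of the same strain, in place of the arm's own 0 h libraries, 1501 genes rose and 1382 fell. These libraries are labelled nocodazole. The methods add the drug at the start of each experiment and do not state whether the 0 h samples were taken before it. This other 0 h reference itself differed from the arm's own 0 h libraries in 1014 genes (16.8%), and a change against it includes that difference. It is given beside several of the lists and genes that it moved.

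Among the genes that fell most were those of the phosphate regulon, zinc uptake and iron uptake. PHO89, which codes for the sodium-coupled phosphate transporter of the plasma membrane, had 77.6, 28.7 and 24.0 CPM at 16 h, against 531.5, 735.4 and 385.2 CPM at 0 h. Every 16 h library lay far below every 0 h library. Its log2 change was −3.66 ± 0.38 (SE, as in all changes below; adjusted p = 2.0e-07), or −3.45 with the length trend taken out.
The secreted acid phosphatases followed. PHO5, the main phosphate-repressible acid phosphatase, had 359, 153 and 214 CPM at 16 h, against 1102, 1283 and 992 CPM at 0 h (log2 change −2.22 ± 0.37, adjusted p = 9.2e-05). PHO11, which shares 99.7% of its bases with PHO12, so that reads of the pair may be split between them, had 406, 206 and 197 CPM at 16 h, against 2091, 2422 and 1360 CPM at 0 h (log2 change −2.86 ± 0.39). The groups did not overlap in either gene, nor in PHO12 (log2 change −1.95).
PHO8, the alkaline phosphatase of the vacuole, had 239, 192 and 246 CPM at 16 h, against 548, 614 and 692 CPM at 0 h (log2 change −1.45 ± 0.16). VTC1, a subunit of the complex that makes polyphosphate in the vacuole membrane, had 291, 307 and 269 CPM at 16 h, against 482, 485 and 283 CPM at 0 h. Here 0 h replicate 3 lay within the range of the 16 h libraries. PHO84, the high-affinity phosphate transporter, fell by 0.70 on the log2 scale in the counts (adjusted p = 0.02), but was not called with the length trend taken out (log2 change −0.50, adjusted p = 0.087).

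Of the 22 genes on the phosphate list, 0 rose and 13 fell (17.2% of all genes fell), with a median log2 change of −0.55, against 0.001 over all genes. The number that fell was 11 with the length trend taken out, and without 16 h replicate 2 and 0 h replicate 3 the number was 10. With the culture as a block 7 fell, and VTC1, VTC2 and CTF19 were among those no longer called. The 9 genes that fell in all 3 fits were PHO89, PHO11, PHO12, PHO5, PHO8, PHO86, VTC1, VTC2 and CTF19. The regulators of the pathway were not among them: PHO4 had a log2 change of 0.07, PHO80 of −0.46, PHO85 of −0.01 and PHO81, the inhibitor of Pho80-Pho85, of −0.26, and none of these 4 was called. CACGTG stood within 300 bases before the start codon of 10 of the 22 listed genes (45.5%) and of 7 of the 13 that fell, against 203 of 5679 promoters of all genes (3.57%). The list was written from general knowledge of the pathway, so a share above that of all promoters can follow from how it was made. The same holds for the motifs of the lists below. PHO89 had no such match in that window. CACGTG is not particular to this list: it also stood before 11 of 28 sulfur and methionine genes (39.3%), and before 4 of the 13 of them that fell.

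ZRT1, the high-affinity zinc transporter, had 139, 75.5 and 98.7 CPM at 16 h, against 509, 521 and 611 CPM at 0 h. The replicates of each time lay close together and the times were far apart, and the log2 change was −2.39 ± 0.24 (adjusted p = 2.0e-07). It was −2.44 with the length trend taken out and −2.12 without the 2 libraries named above. ZRT3, which releases zinc from the vacuole, had 84.3, 76.6 and 103.8 CPM at 16 h, against 228, 216 and 215 CPM at 0 h (log2 change −1.31 ± 0.19), and again no libraries overlapped.
The low-affinity transporter ZRT2 had a log2 change of −1.08, the regulator ZAP1, which is a target of its own product, one of −0.96, and the vacuolar zinc importer ZRC1 one of −0.86. Of the 15 zinc and copper genes tested of 17 listed, these 5 fell and 2 rose, IZH4 (log2 change 1.38) and MAC1, the copper-sensing regulator (0.58), and the same 7 were called in all 3 fits. With the culture as a block the 5 still fell and IZH4 and MAC1 were not called (adjusted p = 0.058 and 0.14). The median of the list was −0.35, or −0.05 against the other 0 h reference, where 5 fell and 3 rose. The zinc response element, a motif added after the values were seen, was found before 1 of the 15 genes, ZRT1, and before 6 of the 5679 promoters (0.106%).

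Iron genes fell together too, and in several of them 1 library of 0 h was low. SIT1, a transporter of iron-siderophore complexes, had 87.7, 104.8 and 85.9 CPM at 16 h, against 444, 363 and 72.6 CPM at 0 h, so that 0 h replicate 3 lay below all 16 h libraries. TIS11, which binds mRNAs of iron-using proteins and marks them for decay, had 10.6, 3.90 and 7.76 CPM at 16 h, against 49.7, 34.4 and 10.3 CPM at 0 h. Its log2 change was −2.08 ± 0.39 (adjusted p = 0.00032) and that of SIT1 −1.66 ± 0.43 (adjusted p = 0.0035). In both genes 0 h replicate 3 was the one low library of its time.
FET3, the multicopper oxidase of high-affinity iron uptake, had 310, 262 and 401 CPM at 16 h, against 1159, 1072 and 446 CPM at 0 h (log2 change −1.46 ± 0.27). ENB1, a transporter of enterobactin, had 102, 77.4 and 90.4 CPM at 16 h, against 311, 296 and 147 CPM at 0 h (log2 change −1.48 ± 0.19). FRE4, a ferric reductase, had 145, 51.5 and 86.2 CPM at 16 h, against 455, 408 and 233 CPM at 0 h (log2 change −1.95 ± 0.41, but 0.46 with an adjusted p of 0.36 against the other 0 h reference). In these 3 genes no libraries of the 2 times overlapped, with 0 h replicate 3 the lowest of its time.
Of the 28 iron genes, 15 fell and 2 rose (AFT2, log2 change 0.58, and ISU1, 0.61), with a median log2 change of −0.80. After removal of the length trend 16 fell and 1 rose, and without 16 h replicate 2 and 0 h replicate 3 the numbers were 14 and 0, with a median of −0.88. The fit without these 2 libraries dropped the 0 h library that was low in several iron genes, so it is not a separate check of the fall. Without 0 h replicate 3 alone the median was −0.98. With the culture as a block 10 fell and 0 rose, and SIT1 was not called (log2 change −1.36, adjusted p = 0.074). Against the other 0 h reference 9 fell and 3 rose, with a median of −0.21, and FTR1 (0.41) and ISU1 (−0.33) turned sign without being called. The 14 that fell in all 3 fits were ARN1, ARN2, COT1, ENB1, FET3, FET4, FET5, FRE4, FRE6, FTH1, FTR1, SIT1, SMF3 and TIS11. The cell wall mannoproteins FIT1, FIT2 and FIT3, which hold siderophores, were not called in the counts (log2 changes of 0.11, 0.15 and −0.55), while FIT3 was with the length trend taken out (−0.93, adjusted p = 0.038). The Aft1 core GCACCC stood before 16 of the 28 genes (57.1%) and 10 of the 15 that fell, against 229 of 5679 promoters (4.03%).

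**Figure D2:**
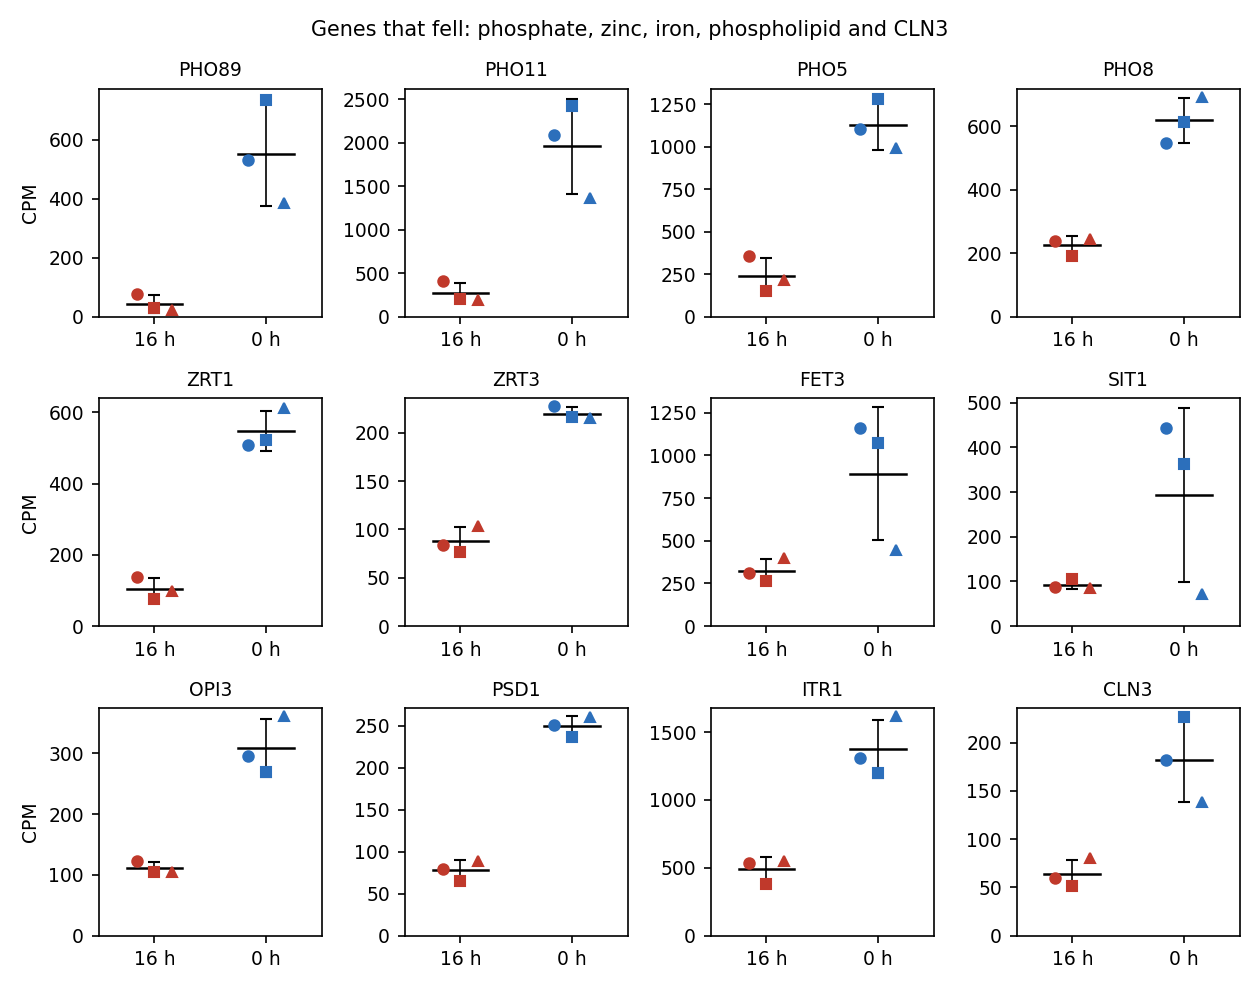
CPM (y axis, linear from 0) in each library of cycling mad1Δ bub2Δ cells at 16 h (red, left) and 0 h (blue, right) for 12 genes that fell; circles, squares and triangles are replicates 1, 2 and 3, the long bar is the mean and the whiskers are 1 SD. The 2 times are apart in every gene but SIT1, where 0 h replicate 3 lies at 72.6 CPM beside 85.9 to 104.8 CPM at 16 h.

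Genes of phospholipid synthesis fell as well, without a common fall of the list. PSD1, which decarboxylates phosphatidylserine in mitochondria, had 79.3, 65.1 and 89.3 CPM at 16 h, against 250.4, 236.5 and 260.6 CPM at 0 h (log2 change −1.68 ± 0.20, adjusted p = 2.2e-06). OPI3, which completes the methylation of phosphatidylethanolamine to phosphatidylcholine, had 123, 106 and 105 CPM at 16 h, against 296, 269 and 361 CPM at 0 h (log2 change −1.48 ± 0.20). ITR1, the inositol transporter, had 536, 381 and 550 CPM at 16 h, against 1313, 1199 and 1616 CPM at 0 h (log2 change −1.49 ± 0.19). No library of 1 time reached the range of the other in these 3 genes. INO1, the inositol-1-phosphate synthase, fell by 1.56, CHO2, the first methyltransferase of that pathway, by 1.17 and CHO1, the phosphatidylserine synthase, by 1.04 on the log2 scale.
OLE1, the fatty acid desaturase, ran the other way, with 1716, 1034 and 1268 CPM at 16 h, against 680.2, 322.5 and 1211 CPM at 0 h (log2 change 0.86 ± 0.28, adjusted p = 0.018), and 0 h replicate 3 lay within the 16 h range. It was not called with the culture as a block (log2 change 1.01, adjusted p = 0.06). Of the 25 listed genes 10 fell and 1 rose, with a median of −0.15, and 7 of the 10 fell in all 3 fits (CHO1, CHO2, ELO2, INO1, ITR1, OPI3 and PSD1). Of 26 genes of the ergosterol pathway 5 rose and 6 fell, close to the shares of all genes (19.9% and 17.2%), with a median of 0.04. The median was −0.20 against the other 0 h reference. In log2(TPM + 1) it was −0.41, against −0.38 for all genes on that scale. Without the 2 libraries 2 rose and 2 fell, and with the culture as a block 2 rose and 5 fell. NCP1, the reductase that feeds electrons to the P450 enzymes of that pathway, had 246, 205 and 357 CPM at 16 h, against 769, 1060 and 897 CPM at 0 h (log2 change −1.75 ± 0.24), whereas IDI1, an isomerase early in the pathway, rose (log2 change 1.01).

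Many of the genes that rose most code for small mitochondrial proteins. CYC1, the cytochrome c that carries electrons to complex IV, had 81.5, 131 and 113 CPM at 16 h, against 33.2, 24.1 and 16.5 CPM at 0 h (log2 change 2.14 ± 0.33, adjusted p = 4.0e-05). QCR7, a subunit of complex III, had 136, 273 and 143 CPM at 16 h, against 54.2, 50.9 and 53.4 CPM at 0 h (log2 change 1.80 ± 0.23). QCR9, another small subunit of complex III, had 29.5, 76.1 and 34.7 CPM at 16 h, against 16.4, 8.63 and 14.0 CPM at 0 h (log2 change 1.84 ± 0.29). The times did not overlap in any of the 3, and 16 h replicate 2 was the highest library in each. These genes are 330 to 414 bases long, a class whose median log2 change was 0.60, and with the trend taken out their log2 changes were 1.41, 1.06 and 1.14.
COX17, which carries copper to cytochrome oxidase, had a log2 change of 2.13, and INH1, the inhibitor of ATP synthase, one of 2.00. ATP14, a subunit of ATP synthase, had a log2 change of 1.73 and COX8, of cytochrome oxidase, one of 1.75. COX7 had one of 1.76, but was not called with the length trend taken out (0.67, adjusted p = 0.095).

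Of the 37 nuclear genes of the respiratory chain and ATP synthase, 27 rose and 2 fell (19.9% and 17.2% of all genes), with a median log2 change of 1.04. With the length trend taken out 15 rose and 1 fell with a median of 0.42, and without the 2 libraries 16 rose and 1 fell with a median of 0.80. Their median coding length was 462 bases. HAP4, the activating subunit of the Hap complex, was the one member that fell in all 3 fits, with 93.7, 76.0 and 69.8 CPM at 16 h, against 156, 166 and 125 CPM at 0 h (log2 change −0.90 ± 0.16). CCAAT stood before 29 of the 37 genes (78.4%) and 23 of the 27 that rose, against 2390 of 5679 promoters (42.1%). The deposited log2(TPM + 1) values gave this list a median of 0.53, against −0.38 for all genes.
The genes that the mitochondrial genome codes for did not rise with them. Of 7 such protein genes tested of 8 listed, 0 were called and the median log2 change was −0.50, in libraries selected for poly(A), which mitochondrial transcripts of yeast lack. COX3 had at most 0.25 CPM. The intron reading frames AI1 and AI2, which lie wholly within COX1 so that their reads cannot be told apart from its own, had 2.26, 2.11 and 5.50 CPM (AI1) and 1.13, 0.16 and 1.55 CPM (AI2) at 16 h, against 7.86, 8.76 and 35.0 CPM (AI1) and 16.6, 10.5 and 44.4 CPM (AI2) at 0 h. Without 0 h replicate 3 and 16 h replicate 2 neither was called.

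Most genes of ribosomal proteins rose, in the cytoplasm and in mitochondria. Of 136 cytoplasmic ribosomal protein genes tested of 137, 99 rose and 1 fell, with a median log2 change of 0.78. After removal of the length trend 73 rose and 5 fell with a median of 0.47, and without the 2 libraries 20 rose and 0 fell with a median of 0.59. RPL39, of the large subunit, had 1260, 1854 and 853 CPM at 16 h, against 488.5, 399.5 and 401.9 CPM at 0 h (log2 change 1.62 ± 0.34, adjusted p = 0.00083). Every 16 h library lay above every 0 h library in this gene, as it did in 104 of the 136 (21.4% of all genes tested did so upward and 19.2% downward). RPS29A had a log2 change of 1.57 but, at 171 bases, one of 0.42 with the length trend taken out (adjusted p = 0.12).
Of 54 genes of the mitochondrial ribosome, a list chosen after the values were seen, 49 rose and 0 fell, with a median of 1.07, or 0.58 with the length trend taken out (37 rose) and 0.68 without the 2 libraries (18 rose). MRPL20 had 80.2, 157 and 70.5 CPM at 16 h, against 38.6, 26.3 and 25.5 CPM at 0 h (log2 change 1.77 ± 0.31). MRPL50 had 52.5, 90.4 and 52.9 CPM at 16 h, against 23.6, 19.9 and 20.5 CPM at 0 h (log2 change 1.61 ± 0.22). Both genes were called in all 3 fits.
The genes that assemble ribosomes gave a smaller and less even picture, with a share that rose close to that of all genes. Of 80 ribosome biogenesis genes 19 rose and 5 fell (19.9% and 17.2% of all genes), with a median of 0.10. In log2(TPM + 1) the median was −0.29, against −0.38 for all genes on that scale. Without the 2 libraries 0 rose and 4 fell, with the culture as a block 10 rose and 0 fell, and against the other 0 h reference 73 rose and 0 fell (median 1.17). NOP1, the methyltransferase of box C/D particles, had 871, 657 and 733 CPM at 16 h, against 1504, 1618 and 787 CPM at 0 h (log2 change −0.79 ± 0.23, or 0.10 against the other 0 h reference), where 0 h replicate 3 lay within the 16 h range.

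Subunits of the proteasome rose by less. Of 33 genes 19 rose and 0 fell, with a median log2 change of 0.42. In log2(TPM + 1) the median was −0.04, against −0.38 for all genes on that scale. With the length trend taken out 18 rose and 1 fell, without the 2 libraries 4 rose and 0 fell, and with the culture as a block 9 rose and 0 fell. Against the other 0 h reference 2 rose and 6 fell, with a median of 0.004. PRE1, of the core particle, had 240, 390 and 213 CPM at 16 h, against 150, 127 and 139 CPM at 0 h (log2 change 1.02 ± 0.20). The level of RPN4, the activator of proteasome genes, was 84.3, 84.9 and 87.4 CPM at 16 h, against 103, 90.3 and 83.1 CPM at 0 h (log2 change −0.11, not called).
On the core histone list, of 9 short genes, 7 rose and 0 fell in the counts, with a median of 0.66. With the length trend taken out 0 were called and the median was −0.13, and without the 2 libraries 0 were called and the median was 0.34. HHF1, a histone H4 gene of 312 bases that shares 97.4% of its sequence with HHF2, had 621, 772 and 401 CPM at 16 h, against 329, 303 and 195 CPM at 0 h (log2 change 1.12, or 0.29 with the trend taken out).

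**Figure D3:**
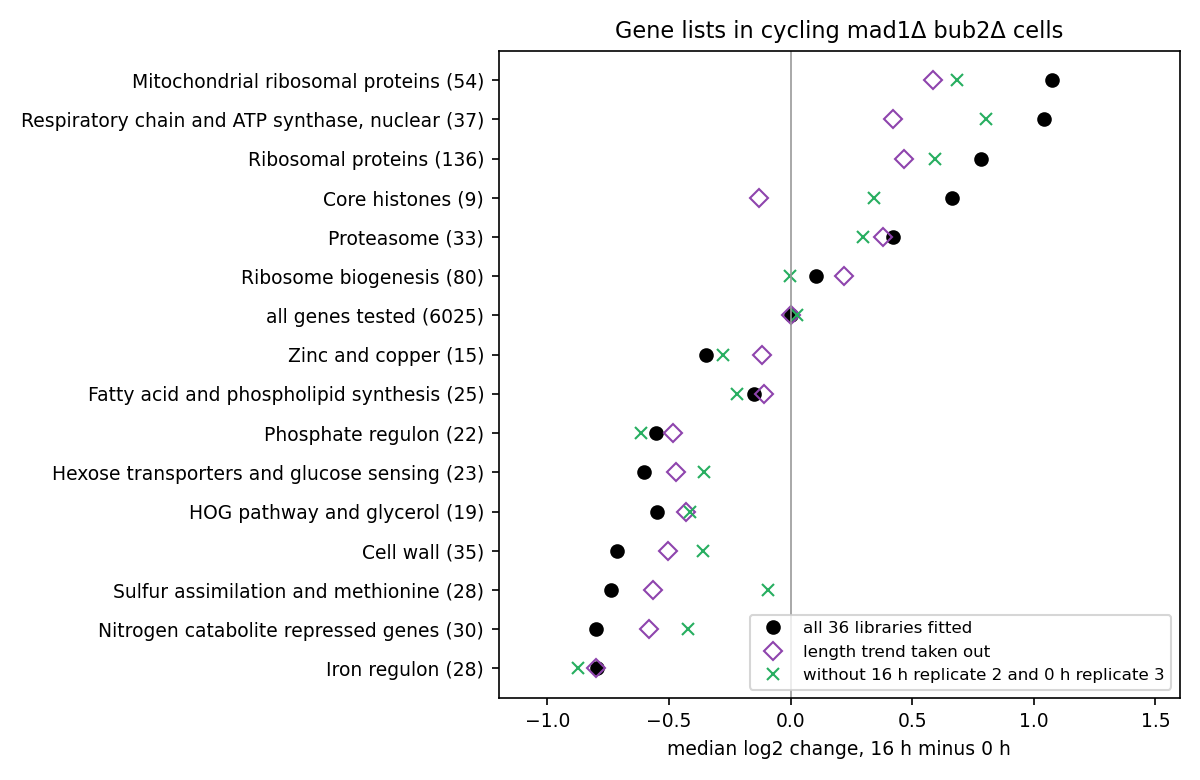
Median log2 change, 16 h minus 0 h (x axis), of the genes on each list (rows, with the number tested) in 3 fits: all 36 libraries fitted (black circles), the length trend taken out (purple diamonds), and without 16 h replicate 2 and 0 h replicate 3 (green crosses). The iron list lies at −0.80, −0.80 and −0.88, whereas the core histones lie at 0.66, −0.13 and 0.34 and the sulfur list at −0.74, −0.57 and −0.09.

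The fall of sulfur assimilation and methionine genes rested on 1 library. STR3, a cystathionine β-lyase that works towards methionine, had 7.76, 18.7 and 11.0 CPM at 16 h, against 8.43, 9.88 and 223.5 CPM at 0 h. SUL1, a sulfate transporter, had 1.55, 1.95 and 0.99 CPM at 16 h, against 3.43, 4.25 and 26.9 CPM at 0 h. MUP3, a low-affinity methionine permease, had 13.1, 8.12 and 5.64 CPM at 16 h, against 24.9, 24.1 and 85.9 CPM at 0 h. In each of the 3 genes 0 h replicate 3 was far above the other 5 libraries.
The log2 change of STR3 was −2.69 ± 1.01 (adjusted p = 0.036), and 0.44 without 0 h replicate 3. Of 28 listed genes 13 fell and 0 rose, with a median of −0.74, and 6 fell with the culture as a block. Against the other 0 h reference 5 fell and 3 rose, with a median of −0.16. Without 0 h replicate 3, 3 fell and 3 rose, with a median of −0.09, and without both libraries only SAH1, the S-adenosylhomocysteine hydrolase, was called (log2 change −0.67 ± 0.16 over all libraries).
Genes repressed by good nitrogen sources were also highest in that library. AGP1, a broad amino acid permease, had 174, 179 and 173 CPM at 16 h, against 250.4, 260.0 and 975.2 CPM at 0 h. MEP2, the high-affinity ammonium transporter and sensor, had 154, 95.4 and 115 CPM at 16 h, against 302, 227 and 627 CPM at 0 h (log2 change −1.66 ± 0.30). Here all 0 h libraries were above all 16 h libraries, with replicate 3 the highest. Of 30 genes 18 fell and 0 rose, with a median of −0.80, and without both libraries 4 fell (BAP2, DUR3, MEP2 and PTR2) with a median of −0.42. Without 0 h replicate 3 alone 10 fell and 2 rose, with a median of −0.52. Against the other 0 h reference 25 fell and 0 rose, with a median of −1.61. At 0 h 17 of the 30 were already lower in the DMSO arm than in that reference (median −1.14). With the culture as a block 12 fell, and AGP1 was not called (adjusted p = 0.073).

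**Figure D4:**
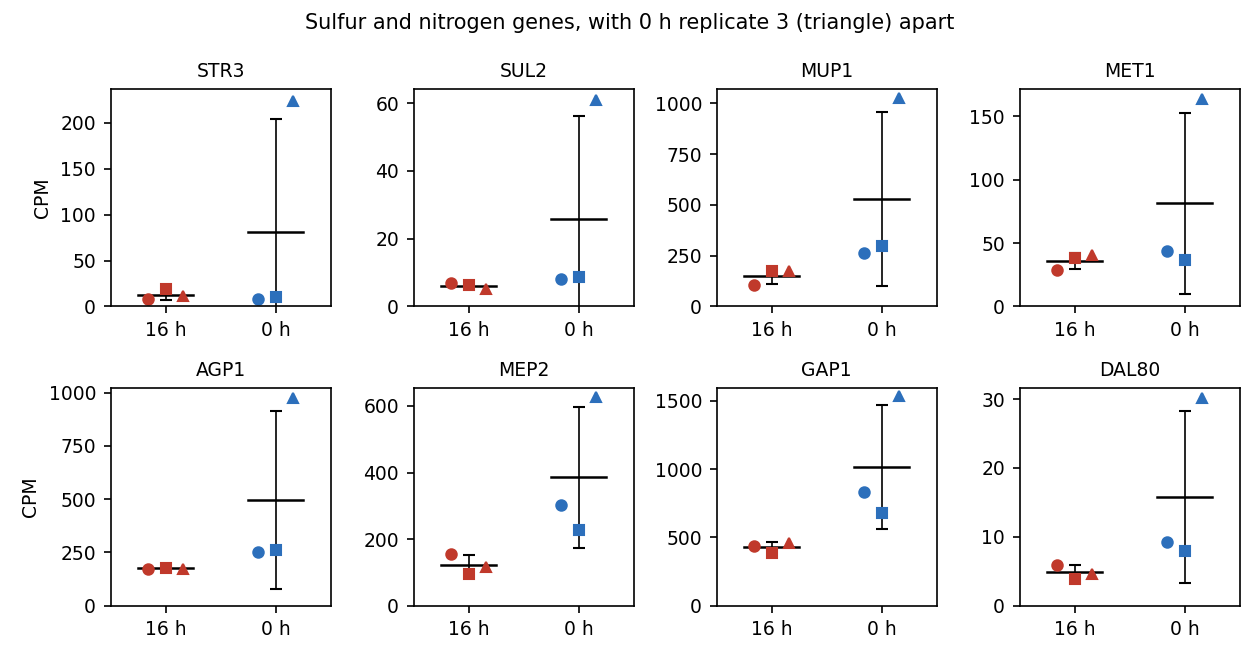
CPM (y axis, linear from 0) in each library of cycling mad1Δ bub2Δ cells at 16 h (red, left) and 0 h (blue, right) for 4 sulfur genes (top) and 4 nitrogen genes (bottom), with the mean (long bar) and 1 SD (whiskers). The triangle of 0 h replicate 3 stands above the other 5 libraries in all 8 panels, at 223.5 CPM for STR3 and 975 CPM for AGP1.

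Cell wall genes fell more often than they rose. Of 35 listed genes 20 fell and 0 rose, with a median log2 change of −0.71, 17 fell and 1 rose with the length trend taken out, and 6 fell without the 2 libraries (CHS2, CHS3, FLO11, GAS5, UTR2 and YPS1). YPS1, an aspartyl protease anchored at the cell surface, had 115, 81.0 and 115 CPM at 16 h, against 281, 338 and 375 CPM at 0 h (log2 change −1.67 ± 0.18, adjusted p = 2.8e-07). FLO11, a cell surface flocculin, had 4.94, 4.87 and 7.61 CPM at 16 h, against 14.4, 15.8 and 22.3 CPM at 0 h (log2 change −1.58 ± 0.32). Both genes were apart in all libraries.
Of 23 hexose transporter and glucose sensing genes tested of 25, 10 fell and 0 rose, with a median of −0.60, and 4 of them fell in all 3 fits. HXT2, a transporter made at low glucose, had 280, 371 and 357 CPM at 16 h, against 896, 1019 and 1212 CPM at 0 h (log2 change −1.63 ± 0.30). The other 3 were the glucose sensors SNF3 (log2 change −1.26) and RGT2 (−1.06) and the repressor MIG1 (−0.94). TDA1, a kinase linked to glucose signalling, had 18.9, 16.6 and 21.3 CPM at 16 h, against 79.2, 92.6 and 57.9 CPM at 0 h (log2 change −2.01 ± 0.22), and ATO3, an ammonia exporter, had 47.6, 31.5 and 36.9 CPM at 16 h, against 161, 208 and 118 CPM at 0 h (log2 change −2.07 ± 0.31).
Of 19 genes of the high osmolarity glycerol pathway 10 fell and 0 rose, with a median of −0.55, and 10 fell with the length trend taken out. Without the 2 libraries 4 fell and 1 rose, with a median of −0.42. GPD2, a glycerol-3-phosphate dehydrogenase, had 224, 133 and 182 CPM at 16 h, against 384, 498 and 454 CPM at 0 h (log2 change −1.31 ± 0.19). The aquaglyceroporin FPS1 had a log2 change of −1.05 and the mitochondrial dehydrogenase GUT2 one of −1.13. In the unfolded protein response list 7 of 14 fell and 0 rose, and the sensor IRE1 (log2 change −1.21) fell in all 3 fits, as did INO1, which is on this list too.

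Of 15 genes of G1 cyclins and their regulators 2 fell and 0 rose (17.2% and 19.9% of all genes). CLN3, the G1 cyclin that starts the cycle, had 59.6, 51.8 and 80.0 CPM at 16 h, against 182, 227 and 139 CPM at 0 h (log2 change −1.52 ± 0.21, adjusted p = 1.3e-05), and was the one called in all 3 fits. The G1 cyclins that follow it, CLN1 and CLN2, were not called, with log2 changes of −0.26 and 0.25. BCK2, which acts beside CLN3, had a log2 change of −0.61. CLB5, the S-phase cyclin, had 36.8, 55.8 and 39.3 CPM at 16 h, against 19.9, 24.6 and 26.8 CPM at 0 h (log2 change 0.89 ± 0.21).
Of 16 spindle checkpoint and mitotic exit genes, 1 rose (MAD2, log2 change 1.02) and 4 fell, against 19.9% and 17.2% of all genes, and 0 were called in all 3 fits. The direction turned with the length trend taken out, where 5 rose and 1 fell, and with the culture as a block 1 rose and 0 fell. Of 29 general stress genes under Msn2 and Msn4, 3 rose and 1 fell, with a median of −0.34. With the length trend taken out 0 rose and 1 fell, with the culture as a block 1 rose and 0 fell, and without the 2 libraries 0 were called and the median was 0.48. GCV3, of the glycine cleavage complex, had 120.0, 138.9 and 112.5 CPM at 16 h, against 43.3, 32.6 and 50.6 CPM at 0 h (log2 change 1.55 ± 0.26), and MDH3, the peroxisomal malate dehydrogenase, had a log2 change of 1.07. SPS4, a sporulation gene of unknown function, had the highest log2 change of the genes named by rank (2.42 ± 0.47), at 8.75, 21.9 and 12.4 CPM at 16 h, against 3.57, 3.25 and 1.15 CPM at 0 h.

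Stress and redox genes moved in both directions. GRX1, a glutaredoxin, had 100.5, 162 and 81.5 CPM at 16 h, against 40.0, 34.4 and 51.0 CPM at 0 h (log2 change 1.46 ± 0.24, or 0.63 with the length trend taken out). GSH2, the glutathione synthetase, had 212, 240.4 and 208 CPM at 16 h, against 146, 138 and 140.5 CPM at 0 h (log2 change 0.64 ± 0.11, or 0.77). OYE2, a flavin-dependent reductase, ran the other way, with 497, 382 and 476 CPM at 16 h, against 667, 782 and 669 CPM at 0 h (log2 change −0.64 ± 0.12). The times did not overlap in these 3 genes. Of the 26 genes on the list 8 rose and 3 fell (19.9% and 17.2% of all genes), with a median of 0.25. In log2(TPM + 1) the median was −0.24, against −0.38 for all genes on that scale. With the length trend taken out 6 rose and 5 fell.
Of 21 heat shock chaperone genes 4 rose and 2 fell (19.9% and 17.2% of all genes), with a median of −0.27. The numbers that rose and fell were 3 and 0 without the 2 libraries, 2 and 2 with the culture as a block, 3 and 9 against the other 0 h reference and 1 and 7 in log2(TPM + 1). On that last scale 301 of all 6025 genes rose and 2131 fell. AHA1, an activator of Hsp90, had 201, 214 and 242.5 CPM at 16 h, against 144, 125 and 132 CPM at 0 h (log2 change 0.71 ± 0.14). Of 18 genes of the TCA cycle 6 rose and 1 fell (19.9% and 17.2% of all genes), with a median of 0.20. The numbers were 4 and 0 without the 2 libraries, and 2 and 0 with the culture as a block. The direction turned against the other 0 h reference, where 1 rose and 7 fell (median −0.40). In log2(TPM + 1) 1 rose and 6 fell, with a median of −0.17, above the median of −0.38 for all genes on that scale. IDH1, a subunit of isocitrate dehydrogenase, had 183, 181 and 185 CPM at 16 h, against 107, 118 and 112.5 CPM at 0 h (log2 change 0.70 ± 0.13). The replicates of IDH1 lay close together and the times were apart.
Amino acid synthesis was divided too, with 8 of 59 genes that rose and 15 that fell and a median of −0.19, not far from the shares of all genes (19.9% and 17.2%). Without the 2 libraries 3 rose and 5 fell, with a median of 0.06, and with the culture as a block 3 rose and 7 fell. SER1, the transaminase of serine synthesis, had 198, 246 and 178 CPM at 16 h, against 116, 109 and 119.5 CPM at 0 h (log2 change 0.85 ± 0.18). SER3, which begins that pathway, had 72.1, 78.2 and 58.2 CPM at 16 h, against 112.5, 92.8 and 129.6 CPM at 0 h (log2 change −0.68 ± 0.15), so that genes of 1 pathway were apart in opposite directions. ILV1, the threonine deaminase of isoleucine synthesis, fell (log2 change −0.97 ± 0.20).
Of 18 drug efflux genes under Pdr1 and Pdr3, 7 fell and 2 rose, and 5 fell and 1 rose after removal of the length trend or with the culture as a block. Without the 2 libraries 2 fell and 0 rose (median −0.31), and against the other 0 h reference 14 fell and 0 rose (median −1.52). At 0 h 12 of these 18 genes were already lower in the DMSO arm than in that reference (median −0.96), a difference that the last count includes. QDR2, a multidrug transporter, had 21.2, 19.2 and 19.2 CPM at 16 h, against 45.3, 34.1 and 56.9 CPM at 0 h (log2 change −1.19 ± 0.15). STE6, the exporter of a-factor, had 326, 282 and 411 CPM at 16 h, against 596, 689 and 561 CPM at 0 h (log2 change −0.86 ± 0.18). In both genes every 16 h library was below every 0 h library.

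The changes were spread over the chromosomes, but genes near chromosome ends fell more often than they rose. The median log2 change of a chromosome ran from −0.11 on chromosome VI to 0.09 on chromosome IV, and with the length trend taken out the 16 medians ran from −0.15 to 0.10. Within 30 kb of a chromosome end 23 of 332 genes rose and 74 fell, against 19.9% and 17.2% of all genes. Their median was −0.22, or −0.28 with the length trend taken out. The 19 mitochondrial features had a median of −1.09, with 0 that rose and 3 that fell. A Ty1 element, YDR261C-D, fell (log2 change −2.04 ± 0.48), but it shares 96.5% to 99.8% of its bases with 25 other copies, so that its reads cannot be placed.

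The nocodazole arm started elsewhere and changed otherwise. At 0 h 1014 of 6025 genes (16.8%) differed between the cultures of the DMSO arm and those of the nocodazole arm, which are of the same strain but labelled nocodazole at 0 h too. SNQ2, a drug efflux pump, had 268, 299 and 416 CPM in the DMSO arm at 0 h, against 7618, 7224 and 4209 CPM in the nocodazole arm at 0 h (log2 difference −4.28, adjusted p = 1.8e-12). Of the 80 ribosome biogenesis genes 77 were higher in the DMSO arm at 0 h. A difference of changes between these arms includes this difference at the start.
The change over 16 h was higher in the DMSO arm than in the nocodazole arm in 1314 of 6025 genes (21.8%) and lower in 1221 (20.3%). For 129 of 136 ribosomal protein genes it was higher and for 0 lower, with own medians of 0.78 in the DMSO arm and −0.89 in the nocodazole arm. For the phosphate list 11 were higher and 4 lower, with own medians of −0.55 and −1.30, and the difference for PHO5, 1.07 ± 0.50, was not called (adjusted p = 0.082). The difference was −2.45 ± 0.49 for PHO89 and −1.62 ± 0.33 for ZRT1.
PSD1 had log2 changes of −1.68 with DMSO and −1.72 with nocodazole, a difference of 0.05 ± 0.28 (adjusted p = 0.91). CLN3 had log2 changes of −1.52 and −0.28, a difference of −1.24 ± 0.29 (adjusted p = 0.0012). The mitochondrially encoded genes had own medians of −0.50 with DMSO and 3.26 with nocodazole, and 6 of 7 differed.

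The cycling cdc24-1 swe1Δ cells, which also divided for 16 h, differ from these cells in strain and temperature and in that their labels give no DMSO, and these cannot be told apart. The change was higher in mad1Δ bub2Δ cells in 736 of 6148 genes (12.0%) and lower in 602 (9.79%), and with the length trend taken out 386 were higher and 414 lower. With the culture as a block and only the libraries compared, 518 genes differed, against 595 in those libraries without the block. PHO89 had 77.6, 28.7 and 24.0 CPM at 16 h and 531.5, 735.4 and 385.2 CPM at 0 h in mad1Δ bub2Δ cells, against 417, 681 and 427 CPM at 16 h and 163, 159 and 415 CPM at 0 h in cdc24-1 swe1Δ cells, whose CPM are on the scaling of all 72 libraries. Its difference was −4.70 ± 0.66 (adjusted p = 4.7e-06).
Of the 22 phosphate genes 13 had a lower change and 1 a higher one, with own medians of −0.55 in mad1Δ bub2Δ cells and 0.37 in cdc24-1 swe1Δ cells. Of the 28 iron genes 16 were lower and 2 higher, with own medians of −0.80 and 0.16. For PSD1 the difference was −2.37 ± 0.25 and for CLN3 −1.68 ± 0.30. In the fit without the length trend, 13 phosphate genes and 13 iron genes were lower, and 0 genes of either list were higher.
Of the 37 respiratory genes 26 had a higher change and 1 a lower one, with own medians of 1.04 and −0.24, and with the length trend taken out 12 were higher and 1 lower. Of 137 ribosomal protein genes 56 were higher, and 17 were higher and 4 lower with the trend taken out. The ribosome biogenesis list had own medians of 0.10 and 0.75, with 0 genes higher and 28 lower. HXT7, a high-affinity hexose transporter that shares 99.8% of its bases with HXT6, had 183, 505 and 203 CPM at 16 h and 199.8, 233 and 489 CPM at 0 h in mad1Δ bub2Δ cells, against 100.2, 135 and 40.3 CPM at 16 h and 781, 1381 and 635 CPM at 0 h in cdc24-1 swe1Δ cells.

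**Figure D5:**
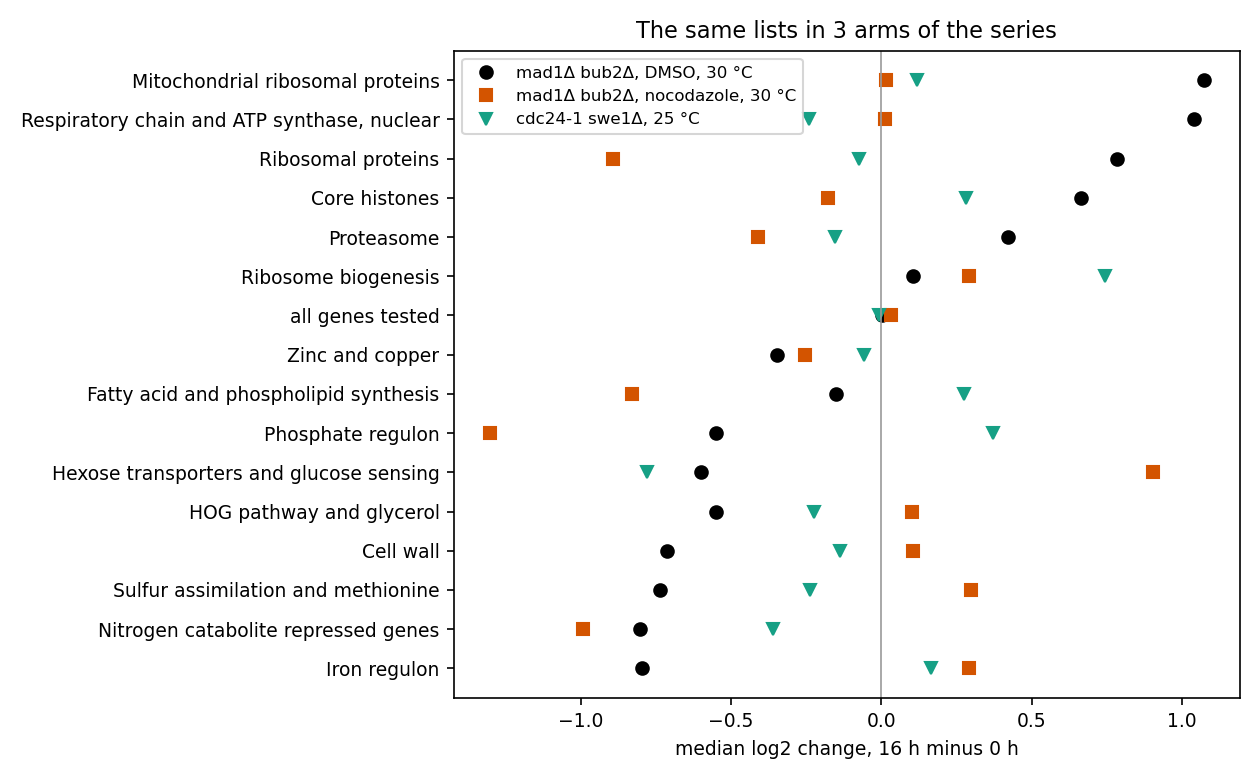
Median log2 change, 16 h minus 0 h (x axis), of each list (rows) in cycling mad1Δ bub2Δ cells with DMSO (black circles), mad1Δ bub2Δ cells with nocodazole (orange squares) and cycling cdc24-1 swe1Δ cells (green triangles). The phosphate list lies at −0.55, −1.30 and 0.37 and the ribosomal proteins at 0.78, −0.89 and −0.07 in the 3 arms.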

How the data were processed

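Poly(A)-selected RNA was sequenced, and the authors aligned reads to the yeast R64 genome with STAR and quantified genes with Salmon (versions not given in the sources used here). The deposited estimated counts were whole numbers after the authors' rounding, for 6843 features, and the deposited log2 values were log2(TPM + 1). The kit was not named as directional, so overlapping genes cannot be told apart. Names and lengths of 6014 features came from RefSeq (R64).

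The main test was edgeR 4.0.16 (R 4.3.3), a quasi-likelihood fit with TMM scaling on 36 libraries, in which all groups share 1 estimate of the spread. The difference of changes from the nocodazole arm was an interaction term in the same model. That from the cdc24-1 swe1Δ arm came from a separate fit to all 72 libraries, with its own filter, scaling and spread. The own medians of cdc24-1 swe1Δ cells came from that fit, and those of mad1Δ bub2Δ cells from the fit to 36 libraries. A gene was called at an adjusted p under 0.05 (Benjamini-Hochberg over all genes). limma 3.58.1 was used on the log2 values and DESeq2 1.42.0 as an alternative. Motifs were searched with Python 3.11.15, and near-identical copies were found with blastn 2.17.0+.

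Named genes were the 12 highest and 12 lowest called changes with groups that did not overlap and a mean of at least 10 CPM, the 3 largest called changes of each list, and the 5 highest and lowest differences. Other members of the lists are named with their values. The members and lists were chosen with earlier results of these data known, and the mitochondrial ribosome list, the zinc motif, the length trend and the fit without 2 libraries after these values were seen.

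The methods place the times of a replicate in 1 culture. Over 5357 genes, deviations of same-numbered libraries from their group means correlated at 0.12, −0.20 and 0.16. With totals of at least 7104630 counts per library, the precision of all but low genes was set by the spread of 3 cultures. No 2 replicates were alike within sampling noise.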

Additional observations from a re-analysis of the deposited data

Results flagged for a closer look

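The results here were set apart because the change over 16 h differed between arms by a test of the difference itself (edgeR's quasi-likelihood test with Benjamini-Hochberg adjustment). The change differed from that of cycling cdc24-1 swe1Δ cells in 1338 genes and from that of nocodazole-treated mad1Δ bub2Δ cells in 2535 genes.

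Against cycling cdc24-1 swe1Δ cells, the highest log2 differences of changes were 3.86 in EGO4, 3.74 in YFR052C-A, 3.36 in HXK1 (hexokinase 1), 3.31 in HXT7 and 3.22 in DDR2, a gene of the general stress response. With the length trend taken out, HXK1 (3.48) and HXT7 (3.56) stayed called, and DDR2 had an adjusted p of 0.21 and EGO4 of 0.057. HXK1 had 55.1, 129 and 109 CPM at 16 h and 29.3, 30.8 and 119 CPM at 0 h in mad1Δ bub2Δ cells, against 87.0, 71.5 and 53.9 CPM at 16 h and 389, 618 and 314 CPM at 0 h in cdc24-1 swe1Δ cells. The lowest differences were −3.26 in PHO11, −4.15 in AI4, −4.70 in PHO89 and −4.99 in AI2. YBL111C had a fitted difference of −13.13, a value set by the prior count, since it was at 0 in all 16 h libraries with DMSO and had 0, 13.8 and 23.2 CPM at 0 h, and it is a subtelomeric gene with a copy of 100% identity over 1911 bases.

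Against nocodazole-treated mad1Δ bub2Δ cells, the highest log2 differences were 4.35 in DSE2, 4.10 in DSE1, 4.08 in SPS4, 3.97 in YGR035C and 3.60 in SNG1. SNG1, which is linked to drug resistance, had 25.7, 24.1 and 37.0 CPM at 0 h with DMSO, against 1704, 1542 and 562 CPM at 0 h with nocodazole. The lowest were −6.11 in SNO1, a gene of vitamin B6 synthesis, −6.29 in AI4, −6.98 in AI2, −7.40 in SPG4 and −11.67 in YBL111C. SPG4, a gene for survival at high temperature in stationary phase, had 0.28, 0.65 and 0.42 CPM at 16 h and 0.71, 0.38 and 0.72 CPM at 0 h with DMSO, against 21.9, 23.4 and 24.3 CPM at 16 h and 0.15, 0 and 0.33 CPM at 0 h with nocodazole.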

How the results depend on the processing

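The change over 16 h was called in 2238 genes. It was called in 245 against a 1.5-fold change, 1049 with only the compared libraries fitted, 854 with the length trend taken out and the replicate block, 548 without 16 h replicate 2 and 0 h replicate 3, and 1047 (without 16 h replicate 2) to 2569 (without 16 h replicate 3) with 1 library left out. With the replicate block, that is the pairing of times within cultures, 1054 genes were called. All fits with this block used only the compared libraries. The difference from cdc24-1 swe1Δ cells (1338 genes) came to 800 with the length trend taken out, 211 against 1.5-fold, 595 with only the compared libraries, 518 with the replicate block, 62 with block and length trend, 624 to 1773 with 1 library of the DMSO arm left out, and 746 without both libraries. The difference from nocodazole-treated cells (2535) came to 1250 against 1.5-fold and 2069 to 2752 with 1 library of the DMSO arm left out. Libraries of the other arm were not left out in either difference. The 0 h comparison (1014) came to 113 against 1.5-fold, 284 with only the compared libraries and 552 to 1316 with 1 library left out. Calls by limma on log2(TPM + 1) were upward in 12.4% of 2432, 8.37% of 1541, 7.71% of 3411 and 30.2% of 1071 genes in these 4 comparisons. The difference in DNA content ran from −6.51 to −4.01 kAU with 1 library left out. Log2 changes that turned sign were those of SML1 (−0.038), HOR7 (−0.11) and SUI1 (−0.038) with length trend and replicate block, HOR7 (−0.17) and SUI1 (−0.0050) with the length trend taken out, SDH2 (−0.17), NOP1 (0.10), VHT1 (0.10) and FRE4 (0.46) against the 0 h libraries of the nocodazole arm, and STR3 without both libraries (0.03) and, over the fits that left out 1 library, from −3.23 to 0.44 (without 0 h replicate 3). The cause was not tested. Precision was limited by 3 cultures a time.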
